A study of Mus musculus with 7 samples.

Results

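The secondary, or specific, granules of neutrophils were followed through 7 genes in spleen RNA of mice lacking the formyl peptide receptor Fpr2. The 7 were taken by name from the 55414 genes of a read count table: Ltf, Lcn2, Camp, Ngp, Chil3, Cd177 and Ltb4r2. Polyadenylated RNA of spleen was sequenced in 4 libraries labelled Fpr2KO and 3 labelled WT, whose genotype is given as C57BL/6N. The design text calls the first group Fpr2-/-. The labels give no treatment, and the age and sex of the mice, the strain background of the Fpr2KO mice and whether replicates are separate animals are not given in the sources used here. P-values therefore measure the spread between these samples, which may be technical. Values are read counts scaled to a common library size (CPM) after TMM scaling, which corrects for differences in library composition, and all 7 genes passed the low count filter.

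Neutrophils build their granules in sequence as they mature in the marrow. Primary granules, with myeloperoxidase and elastase, are filled at the promyelocyte stage, specific granules at the myelocyte and metamyelocyte stage, and gelatinase granules and surface receptors follow. Transcripts of granule proteins are mostly made while the granule forms and are low in mature neutrophils, so in tissue RNA they mark younger cells of the lineage than receptor genes such as Cxcr2 do. In mice, the transcription factor C/EBP epsilon, encoded by Cebpe, is required for the expression of specific granule genes. The red pulp of the mouse spleen holds both neutrophils and sites of granulocyte production. Of the 7 genes, Ltf, Lcn2, Camp, Ngp and Chil3 encode secreted proteins and Cd177 a surface glycoprotein. Ltb4r2 encodes a low-affinity leukotriene B4 receptor of the plasma membrane and no granule protein, and the data below set it apart from the others.

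RefSeq lists a promoter (GRCm38.p6) for 6 of the 7 genes, all but Ltb4r2. Those of Ltf and Ngp are shown because these genes put the 7 libraries in an identical order (below), and that of Chil3 as a member without the motif. Each run goes 5′ to 3′ from 250 bases before the RefSeq start up to the first base that GENCODE M21 annotates as an exon of the gene, and capitals mark the letters TTGCNNAA on either strand, a form of the C/EBP binding motif.
Ltf, chr9:111019042-111019270, plus strand: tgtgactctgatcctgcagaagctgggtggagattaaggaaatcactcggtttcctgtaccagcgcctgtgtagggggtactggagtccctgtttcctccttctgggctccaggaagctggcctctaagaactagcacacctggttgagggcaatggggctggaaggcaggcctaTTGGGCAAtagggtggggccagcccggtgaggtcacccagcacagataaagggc
Ngp, chr9:110419558-110419746, plus strand: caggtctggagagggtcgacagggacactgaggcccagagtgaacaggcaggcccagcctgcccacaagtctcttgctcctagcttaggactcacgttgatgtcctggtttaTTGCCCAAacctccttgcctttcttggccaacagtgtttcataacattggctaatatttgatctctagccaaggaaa
Chil3, chr3:106167565-106167814, minus strand: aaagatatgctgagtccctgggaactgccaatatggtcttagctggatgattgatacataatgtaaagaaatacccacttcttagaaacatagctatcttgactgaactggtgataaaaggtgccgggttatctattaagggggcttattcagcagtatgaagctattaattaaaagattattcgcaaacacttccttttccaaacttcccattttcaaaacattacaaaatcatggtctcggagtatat
Ltf and Ngp hold the same 8 letters, TTGCCCAA, on opposite strands, and Chil3 holds no match in this window. Within the 250 bases before the RefSeq start, 3 of the 6 promoters (Ltf, Lcn2 and Ngp) held TTGCNNAA, against 9.56% of 32851 RefSeq promoters. The Lcn2 window lies wholly past the first base that GENCODE M21 annotates as an exon of that gene. Cut as the printed runs are, it would hold 0 bases and no match. The exact letters TTGCCCAA, which were picked after these sequences were seen, stood in 2 of the 6 and in 0.709% of all. The letters GAGGAA, bound by the myeloid factor PU.1, stood on either strand in 3 of the 6 and in 23.2% of all.

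Libraries held 14968605 to 18692809 counts, so that 3 counts, taken as the floor, corresponded to between 0.156 and 0.201 CPM. Fpr2 itself, in a check of the labels, had 0 reads in all 4 Fpr2KO libraries and 537, 479 and 477 reads in the WT libraries. The B cell marker Cd79a, the T cell marker Cd3e and the red pulp macrophage markers Vcam1 and Spic had reads in every library. Pancreatic acinar transcripts summed over 10 genes to 669 and 345 CPM in Fpr2KO replicates 1 and 2, against 35.04 to 39.4 CPM in Fpr2KO replicates 3 and 4 and 23.7 to 49.0 CPM in WT. Fat cell transcripts (5 genes) reached 22.2 CPM in sum in WT replicate 3, while no other library exceeded 1.93 CPM.

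Transcripts of the 5 secreted granule proteins and of Cd177 averaged between 0.450 (Ltf) and 0.551 (Chil3) of their WT level in Fpr2KO spleens. The groups overlapped, however, in each of these 6 genes. For Ltb4r2 the ratio of the means, Fpr2KO over WT, was 0.740. The fitted level was lower in Fpr2KO for 7 of 7 genes, as it was for 51.4% of all 16089 genes tested. None of the 7 passed edgeR's quasi-likelihood test at a Benjamini-Hochberg adjusted p under 0.05, a threshold that 0.0373% of tested genes passed. At an unadjusted p under 0.05, Lcn2 and Cd177 were lower, 2 of 7 against 3.07% of all tested genes. DESeq2 called 0 of the 7, against 0.379% of the 15848 genes to which it gave an adjusted p. With limma-voom and quality weights 0 of the 7 were called, against 0.0311% of all 16089 tested genes. At an unadjusted p under 0.05, 3 of the 7 were lower with DESeq2, against 1.76% of the genes it gave a p, and 5 with limma-voom, against 3.46%. The median log2 fold change of the 7, Fpr2KO minus WT, was -1.03, and that of all tested genes was 0.00. Bulk RNA cannot tell fewer cells of a type from less RNA per cell.

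Ltf encodes lactoferrin, an iron-binding protein and the classic marker of specific granules (ENSMUSG00000032496, chromosome 9, 111019271 to 111042767, plus strand, GRCm38). It stood at 184, 74.4, 113 and 74.3 CPM in Fpr2KO replicates 1 to 4, against 104, 323 and 317 CPM in WT replicates 1 to 3. WT replicate 1 thus lay below Fpr2KO replicates 1 and 3, while the other WT libraries lay above every Fpr2KO library. The means were 112 ± 51.7 CPM in Fpr2KO (SD, n = 4) and 248 ± 125 CPM in WT (SD, n = 3), for which edgeR estimated a log2 fold change, Fpr2KO minus WT, of -1.15 with an SE of 0.53 (adjusted p = 0.9996).

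Lcn2 encodes lipocalin 2, which binds bacterial siderophores and so withholds iron (ENSMUSG00000026822, chromosome 2, 32384633 to 32388252, minus strand). Its levels were 174, 78.8, 133 and 79.7 CPM in the Fpr2KO libraries, against 158, 298 and 259 CPM in WT. Only Fpr2KO replicate 1 reached above the lowest WT library. On average it had 116 ± 46.1 CPM in Fpr2KO and 238 ± 72.2 CPM in WT, and the estimate of -1.03 ± 0.37 on the log2 scale (± SE) missed the threshold in edgeR (adjusted p = 0.952).

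Camp encodes the cathelicidin CRAMP, an antimicrobial peptide precursor whose human counterpart LL-37 is a ligand of FPR2 (ENSMUSG00000038357, chromosome 9, 109847379 to 109849617, minus strand). It had 133, 54.3, 74.1 and 37.8 CPM in Fpr2KO, against 43.8, 207 and 170 CPM in WT. WT replicate 1 was lower than 3 of the 4 Fpr2KO libraries, and the highest WT library stood 4.72 times above the lowest. Means of 74.8 ± 41.7 CPM in Fpr2KO and 140 ± 85.6 CPM in WT corresponded to a log2 estimate of -0.91 ± 0.67 (edgeR adjusted p = 0.9996).

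Ngp, the neutrophilic granule protein gene, is a relative of Camp in the cystatin and cathelicidin superfamily (ENSMUSG00000032484, chromosome 9, 110419747 to 110423012, plus strand). Fpr2KO libraries held 409, 160, 224 and 116 CPM, against 178, 651 and 605 CPM in WT libraries. Here too WT replicate 1 lay among the Fpr2KO libraries. Means of 227 ± 129 CPM in Fpr2KO and 478 ± 261 CPM in WT gave a log2 estimate of -1.07 ± 0.63 (edgeR adjusted p = 0.9996).

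Chil3 encodes Ym1, a chitinase-like protein of mouse neutrophil granules that some macrophages also make (ENSMUSG00000040809, chromosome 3, 106147554 to 106167564, minus strand). It had 300 CPM in Fpr2KO replicate 1, then 123, 197 and 144 CPM in replicates 2 to 4, against 195, 516 and 329 CPM in WT. WT replicate 1 and Fpr2KO replicate 3 were nearly equal. Chil3 averaged 191 ± 78.8 CPM in Fpr2KO and 347 ± 161 CPM in WT, with a log2 estimate of -0.86 ± 0.45 (edgeR adjusted p = 0.9996). Chil3 has a close relative, Chil4, and reads shared between them could have been assigned to either or left uncounted, although Chil4 had 0 reads in every library.

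Cd177 encodes a GPI-anchored glycoprotein that in human neutrophils lies in the membrane of specific granules and on the cell surface (ENSMUSG00000052212, chromosome 7, 24743983 to 24760311, minus strand). Its levels were 37.3, 15.1, 26.0 and 14.1 CPM in Fpr2KO, against 33.8, 59.5 and 56.2 CPM in WT. The groups overlapped only through Fpr2KO replicate 1 and WT replicate 1. Averages were 23.1 ± 10.9 CPM in Fpr2KO and 49.8 ± 13.996 CPM in WT, with a log2 estimate of -1.11 ± 0.41 (edgeR adjusted p = 0.965).

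Ltb4r2 was covered by few reads (ENSMUSG00000040432, chromosome 14, 55761428 to 55765138, plus strand). It had 20, 21, 18 and 15 reads in the Fpr2KO libraries, against 20, 25 and 20 reads in WT. In CPM these were 1.18, 1.12, 1.06 and 0.781 in Fpr2KO, against 1.34, 1.64 and 1.23 in WT. All WT libraries stood above all Fpr2KO libraries, a separation that 3.18% of tested genes showed in the same direction. Counting error alone is wide here: the exact Poisson interval (95%) of 15 reads runs from 8.395 to 24.74 and that of 25 reads from 16.18 to 36.9, and it covers counting error only. At 1.04 ± 0.176 CPM in Fpr2KO and 1.40 ± 0.211 CPM in WT, the log2 estimate was -0.43 ± 0.28 (edgeR adjusted p = 0.9996). Its neighbour Ltb4r1, the high-affinity receptor, begins 823 bases downstream on the same strand.

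**Figure D1:**
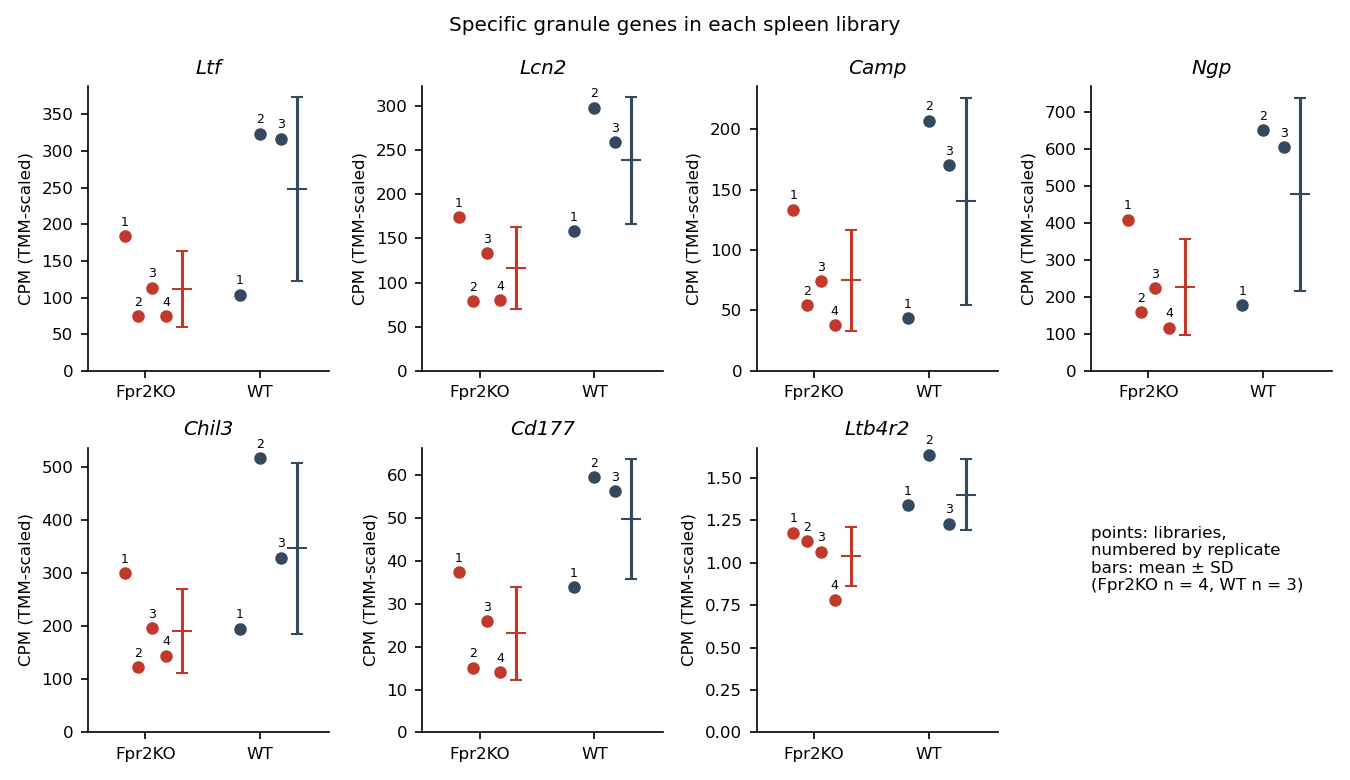
TMM-scaled CPM (linear axes from 0) of each gene in every Fpr2KO and WT library, with points numbered by replicate and bars for the mean ± SD (Fpr2KO n = 4, WT n = 3). In the 6 genes other than Ltb4r2, WT replicate 1 sits within or near the range of the Fpr2KO libraries and Fpr2KO replicate 1 is the highest of its group.

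Per kilobase of the principal transcript, Ngp was the most abundant, with 186 ± 106 CPM per kb in Fpr2KO and 391 ± 214 CPM per kb in WT. Lcn2 (127 ± 50.4 in Fpr2KO, 260 ± 78.9 in WT), Chil3 (124 ± 51.2 in Fpr2KO, 225 ± 105 in WT) and Camp (98.7 ± 55.0 in Fpr2KO, 185 ± 113 in WT) followed in CPM per kb, and these neighbours differed by less than their SDs. Ltf came next at 40.7 ± 18.9 CPM per kb in Fpr2KO and 90.4 ± 45.5 in WT. Cd177 had 8.52 ± 4.02 CPM per kb in Fpr2KO and 18.4 ± 5.16 in WT, and Ltb4r2 had 0.720 ± 0.123 in Fpr2KO and 0.974 ± 0.146 in WT. The order of the means was the same in both genotypes. With the length of all annotated exons together, 2623 bases for Lcn2 in place of 915, Lcn2 moved below Chil3 and Camp, to 44.4 CPM per kb in Fpr2KO and 90.8 in WT.

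The genes moved together from library to library. In 6 of 7 genes the highest libraries were WT replicate 2, WT replicate 3 and Fpr2KO replicate 1, in that order, and in 5 of 7 the lowest pair was Fpr2KO replicates 2 and 4. Ltb4r2 had a different order, with WT replicate 1 second. The ratio of Ngp to Ltf, in CPM within a library, ranged from 1.57 to 2.22 in Fpr2KO and from 1.72 to 2.02 in WT, while Ltf itself ranged over 2.48 times in Fpr2KO and 3.11 times in WT. The ratio of Lcn2 to Ltf was 0.946 to 1.17 in Fpr2KO and 0.816 to 1.52 in WT, where 1.52 belonged to WT replicate 1. Lcn2 and Cd177 were thus less reduced in WT replicate 1 than Ltf, Camp and Ngp were: the mean of WT replicates 2 and 3 was 1.76 and 1.71 times WT replicate 1 for Lcn2 and Cd177, but 3.08, 4.30 and 3.53 times for Ltf, Camp and Ngp.

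In the 6 genes other than Ltb4r2, the spread within each genotype exceeded that of most genes. In Fpr2KO the SD of log2 CPM was 0.78 for Ngp, 0.77 for Camp and 0.62 for Ltf, against a median of 0.17 over all tested genes. In WT it was 1.05, 1.22 and 0.94 for these genes, against a median of 0.20. The SD of Camp in WT exceeded that of 98.7% of tested genes, and that of Chil3, 0.70, exceeded 93.3%. Lcn2 and Cd177, the genes with the smallest unadjusted p, had the smallest WT spreads of the 6, at 0.48 and 0.45. Ltb4r2 varied less than these 6, with an SD of 0.24 in Fpr2KO and 0.20 in WT. These were larger than in 64.6% of tested genes in Fpr2KO and 49.2% in WT. At 15 to 25 reads per library, its spread cannot be told from counting error.

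The estimates moved with single libraries. Without WT replicate 1 the median log2 fold change of the 7 was -1.32. Without Fpr2KO replicate 1 the median was -1.34. With WT replicate 2 left out it was -0.78. Camp ranged from -1.34 to -0.52 over the 7 fits that left out 1 library, and Chil3 from -1.16 to -0.46. No member passed in any of these fits, where the adjusted p was at least 0.7351 for Cd177 without Fpr2KO replicate 1. Without both Fpr2KO libraries that held pancreatic transcripts, the median was -1.32. Without WT replicate 3, the library with fat cell transcripts, it was -0.90.

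**Figure D2:**
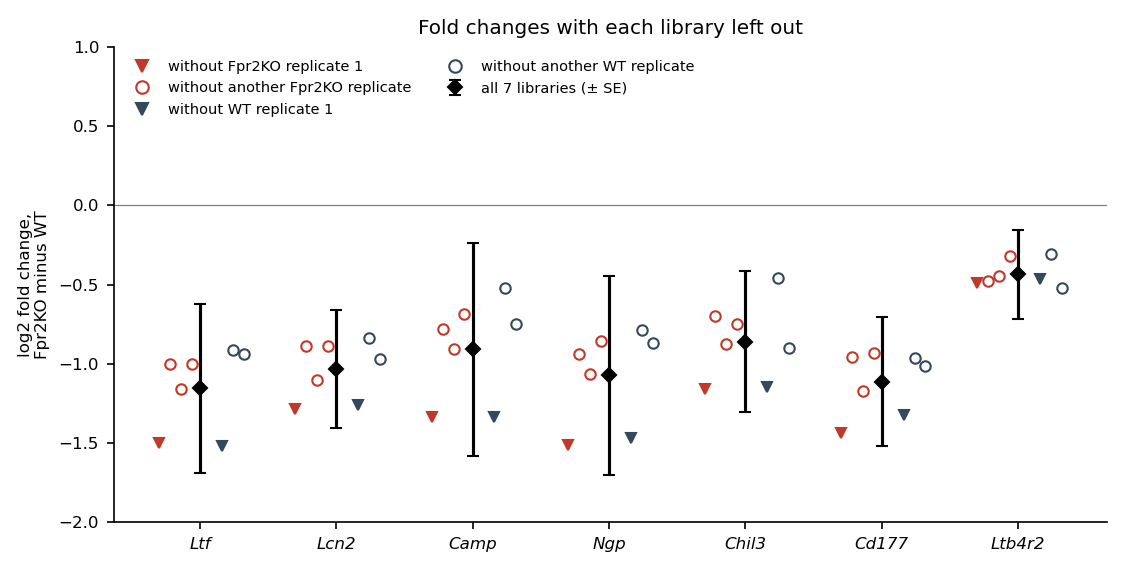
edgeR log2 fold changes, Fpr2KO minus WT (vertical axis), of the 7 genes with all libraries (diamonds, ± SE) and with each library left out. All values lie below 0, and those without Fpr2KO replicate 1 or without WT replicate 1 (triangles) are the farthest from 0 in the 6 genes other than Ltb4r2.

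Genes of other specific and gelatinase granule proteins varied in their fold change, from -1.05 to -0.08 on the log2 scale. Which spleen cells these transcripts came from was not tested. Of 15 such genes, 14 were tested (Ptx3 had 0 reads), all 14 had a lower fitted level in Fpr2KO, with a median of -0.62 on the log2 scale, and 0 passed over all genes. At an unadjusted p under 0.05, 5 were lower, against 3.07% of all tested genes. Slpi, a protease inhibitor, had 188, 152, 200 and 194 CPM in Fpr2KO, against 273, 338 and 352 CPM in WT, with no overlap (log2 fold change -0.81, SE 0.12, edgeR adjusted p = 0.0994). Pglyrp1, a peptidoglycan recognition protein, had 42.7, 34.4, 44.7 and 41.0 CPM in Fpr2KO, against 62.8, 74.3 and 61.4 CPM in WT (-0.70, SE 0.11, edgeR adjusted p = 0.119). In both, WT replicate 1 lay above every Fpr2KO library. Their calls depended on the method. Slpi passed in DESeq2 (adjusted p = 2.02e-05) and in edgeR without a low count filter (adjusted p = 8.00e-05). It also passed in edgeR without WT replicate 1, its lowest WT library (adjusted p = 0.0414). Slpi thus passed in 3 of 18 fits, over which its adjusted p reached up to 0.9996. Pglyrp1 passed in DESeq2 (adjusted p = 0.000267) and in edgeR without the filter (adjusted p = 0.00067), in 2 of 18 fits. Mmp25, a membrane-bound metalloproteinase gene, had a log2 fold change of -0.87 and the gelatinase gene Mmp9 one of -1.03, which passed in DESeq2 (adjusted p = 0.018). Groups did not overlap, Fpr2KO lower, in 4 of the 14, against 3.18% of all tested genes.

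Primary granule genes followed the pattern of the specific granule genes. All 6 (Mpo, Elane, Prtn3, Ctsg, Prss57 and Ms4a3) had a lower fitted level in Fpr2KO, with a median of -0.62 on the log2 scale, and 0 passed, also at an unadjusted p under 0.05. Myeloperoxidase transcripts, from Mpo, had 82.4, 35.2, 48.7 and 23.3 CPM in Fpr2KO, against 41.3, 78.6 and 101 CPM in WT. Fpr2KO replicate 1 again exceeded WT replicate 1, and WT replicate 3 was the highest library. Elane, the neutrophil elastase gene, had 43.6, 19.8, 23.5 and 10.6 CPM in Fpr2KO, against 17.7, 48.0 and 48.6 CPM in WT. On the log2 scale Prtn3, the proteinase 3 gene, stood at -0.65 and Ms4a3 at -0.61.

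Most mature neutrophil genes, but not all, differed from both in WT replicate 1. Of 10 genes, all had a lower fitted level in Fpr2KO (median log2 fold change -0.97) and 0 passed over all genes. At an unadjusted p under 0.05, 9 were lower, against 3.07% of all tested genes. S100a9, an alarmin subunit gene, had 996, 539, 831 and 600 CPM in Fpr2KO, against 1468, 1741 and 1420 CPM in WT, with no overlap (-1.06, SE 0.21, edgeR adjusted p = 0.479). S100a8, the gene of its partner subunit, stood at -1.03 and Ly6g, a neutrophil surface antigen gene, at -1.22 on the log2 scale. DESeq2 called S100a9, S100a8, Ly6g and Retnlg lower, with adjusted p of 0.000177, 0.000674, 0.0222 and 0.0141 in that order. Csf3r, the G-CSF receptor gene, chosen after its values were seen, had 143, 98.1, 153 and 132 CPM in Fpr2KO, against 371, 247 and 127 CPM in WT, so WT replicate 1 was the highest library. WT replicate 1 minus the mean of the other WT libraries was taken in log2 CPM. Its median was -1.08 over the 7 specific granule genes and -1.29 over the 6 primary granule genes. Every gene of both lists lay below 0. The low levels of the members in WT replicate 1 were already described above, so their sign here is no separate result. The median over the 10 mature neutrophil genes was 0.93, with 7 above 0. The 3 below 0 were S100a8 (-0.13), S100a9 (-0.10) and Ly6g (-0.15). Over all tested genes the median was 0.02, with 7638 of 16089 below 0. Over the 14 other genes of specific and gelatinase granules it was 0.06, with 7 below 0 and 7 above 0, from -2.60 to 0.999. Low levels in WT replicate 1 were thus not shared by all specific and gelatinase granule genes.

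**Figure D3:**
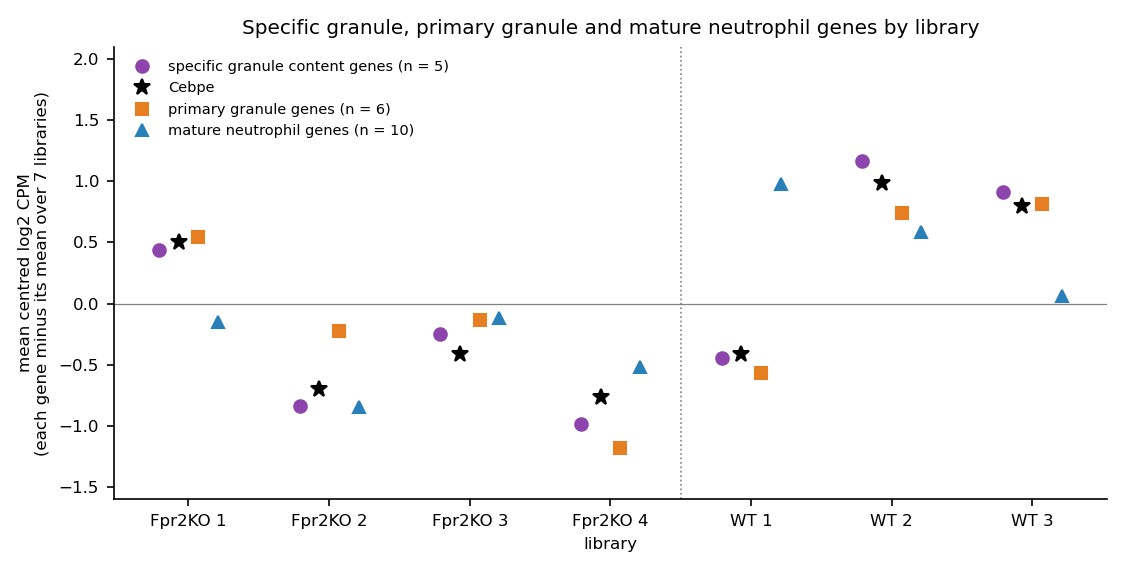
Mean centred log2 CPM (vertical axis) in each library for 5 specific granule content genes (Ltf, Lcn2, Camp, Ngp and Chil3), Cebpe, 6 primary granule genes and 10 mature neutrophil genes. In WT replicate 1 the mature neutrophil genes stand at 0.98, while the specific granule genes stand at -0.44, Cebpe at -0.41 and the primary granule genes at -0.57.

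Set against mature neutrophil transcripts of the same library, the 6 genes other than Ltb4r2 overlapped between the genotypes. The log2 level of each gene minus the mean log2 level of S100a8, S100a9, Ly6g, Cxcr2, Csf3r and Retnlg was compared without a test. For Ltf this difference was 0.04 ± 0.30 in Fpr2KO (SD, n = 4) and 0.10 ± 1.22 in WT (SD, n = 3). Individually it was 0.46, 0.04, -0.05 and -0.27 in Fpr2KO, against -1.28, 0.55 and 1.04 in WT, so that the WT libraries enclosed all Fpr2KO libraries. Ngp stood at 1.02 ± 0.51 in Fpr2KO and 1.01 ± 1.33 in WT. Fpr2KO minus WT ranged from -0.15 for Cd177 to 0.24 for Camp over these 6 genes. Leaving out single libraries moved the value for Ltf between -0.75, without WT replicate 1, and 0.41. Ltb4r2, whose own level differed less between the genotypes, was higher on this scale in every Fpr2KO library, by 0.62 on average. This follows from the reference, whose mean log2 level was itself lower in every Fpr2KO library. It was 7.07, 6.17, 6.88 and 6.49 in Fpr2KO replicates 1 to 4, against 7.98, 7.78 and 7.27 in WT replicates 1 to 3.

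**Figure D4:**
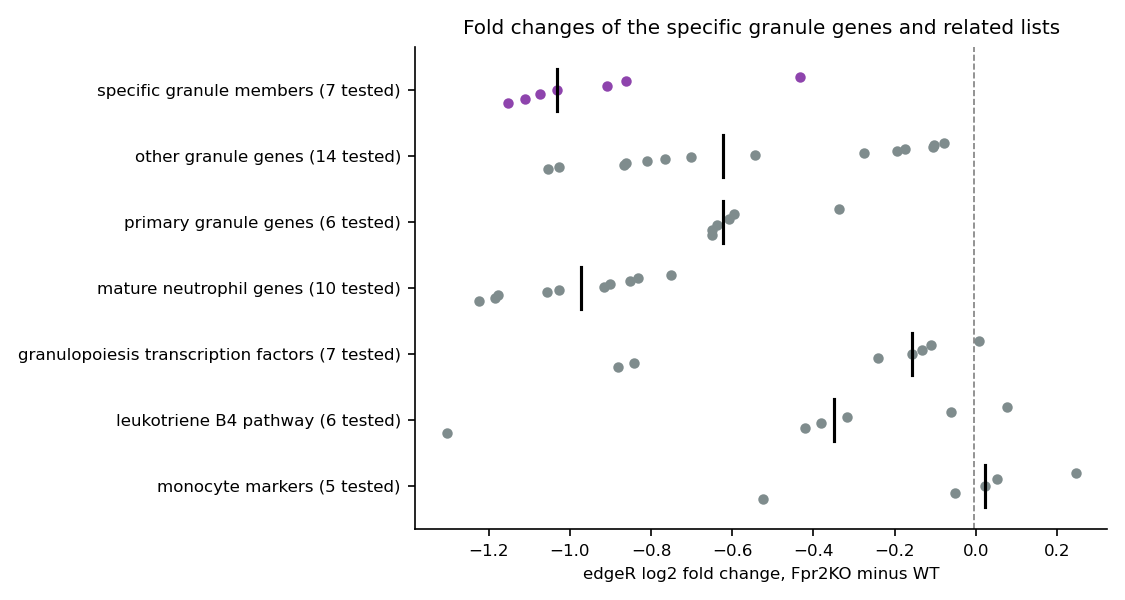
edgeR log2 fold changes, Fpr2KO minus WT (horizontal axis), of the tested genes of 7 lists, with the median of each list as a black bar and that of all tested genes as a dashed line. Specific granule and mature neutrophil genes have medians of -1.03 and -0.97, primary granule genes -0.62 and monocyte markers 0.02. Eosinophil and erythroid markers, not shown, have medians of -0.94 and -0.85.

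The gene whose level was most like that of the specific granule genes was Cebpe. Likeness was measured as the Pearson correlation, over the 7 libraries, of log2 CPM with the mean centred log2 CPM of Ltf, Lcn2, Camp, Ngp and Chil3, among 12731 genes that were not members, and it is given as a description because the libraries share the genotype difference. Cebpe reached 0.990, with a Spearman correlation of 1, so its libraries stood in the same order. It had 7.70, 3.27, 4.02 and 3.12 CPM in Fpr2KO, against 4.01, 10.8 and 9.46 CPM in WT (log2 estimate -0.84 ± 0.42, edgeR adjusted p = 0.9996). Next came Itgb2l, an integrin beta 2-like gene (0.972), Ap3s1, an adaptor complex subunit gene (0.970), Lbp, the lipopolysaccharide-binding protein gene (0.968), and Anxa1 (0.964). Anxa1 encodes annexin A1, a ligand of Fpr2, and had 188, 121, 172 and 127 CPM in Fpr2KO, against 156, 235 and 200 CPM in WT. Adgrg1 (0.960), Faap20 (0.959) and Pdss2 (0.959) completed the first 8. None of these 8 passed edgeR's test.

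Of 6 regulators of granulocyte development other than Cebpe, 5 had a lower fitted level in Fpr2KO, with a median of -0.15 on the log2 scale, and 0 passed over all genes. At an unadjusted p under 0.05, 1 was lower, against 3.07% of all tested genes. Cebpa, needed for entry into the granulocyte lineage, stood at -0.24 ± 0.11 (log2, ± SE), and Spi1, which encodes PU.1, at 0.01 ± 0.10. Cebpd stood at -0.88 ± 0.32 (edgeR adjusted p = 0.9445), with 71.3 CPM in WT replicate 1 against 38.7 and 31.9 CPM in the other WT libraries, the opposite of Cebpe.

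Among 8 receptors and partners of granule proteins, 7 were tested and Fpr2 alone passed. Itgam, which encodes the alpha chain of the integrin Mac-1 and is stored in granules too, stood at -0.54 ± 0.20 (log2, ± SE) without overlap, and Lrp1, an endocytic receptor that binds lactoferrin, at 0.24 ± 0.13. Slc22a17, described as a lipocalin 2 receptor, had 4.00 CPM in Fpr2KO and 4.09 CPM in WT on average. Around Ltb4r2, the leukotriene B4 pathway had 5 of 6 genes with a lower fitted level and a median of -0.35, and 0 passed. Alox5, the lipoxygenase that starts leukotriene synthesis, had 10.2, 7.98, 8.22 and 6.77 CPM in Fpr2KO, against 26.8, 21.7 and 12.97 CPM in WT, with no overlap (-1.30, SE 0.24, edgeR adjusted p = 0.262). Alox5 passed in DESeq2 (adjusted p = 0.00016) and in edgeR without WT replicate 3, its lowest WT library (adjusted p = 0.0161). On the log2 scale Alox5ap stood at -0.38, Cyp4f18 at -0.32 and Ltb4r1 at -0.42. Of 3 relatives of Chil3, Chil1 was tested: it had 18.1, 11.7, 18.9 and 13.3 CPM in Fpr2KO, against 40.6, 34.0 and 24.0 CPM in WT, with no overlap (-1.09, SE 0.22, edgeR adjusted p = 0.456), and it passed in DESeq2 (adjusted p = 0.00083). WT replicate 1 was its highest library, unlike that of Chil3.

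Camp, Ngp and Ltf lie within 1195 kb of chromosome 9. Between Camp and Ngp there are 570 kb, and between Ngp and Ltf 596 kb. The 19 other tested genes of this stretch had a median log2 fold change of 0.05, with 7 lower, and 0 had an unadjusted p under 0.05.

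Markers of other cells that can make these proteins were set beside them. Monocyte markers (5 genes) summed to 1054 to 1159 CPM in Fpr2KO and 1062 to 1304 CPM in WT, with a median log2 fold change of 0.02. Ly6c2 stood at -0.52 ± 0.14, lower at an unadjusted p under 0.05, F13a1 at 0.25 ± 0.34 and Ms4a4c at 0.05 ± 0.09. Markers of alternatively activated macrophages, which can express Chil3, summed over 4 genes to 272 to 369 CPM in Fpr2KO and 247 to 333 CPM in WT, nearly all from Mrc1, and Arg1 lay near the floor. Retnla had 0.176, 0.536, 0.532 and 0.677 CPM in Fpr2KO, against 0.870, 0.458 and 3.38 CPM in WT, where WT replicate 3 alone was high. Clec10a had 5.17, 6.64, 4.73 and 5.78 CPM in Fpr2KO, against 6.89, 6.87 and 9.34 CPM in WT, with no overlap (log2 -0.46 ± 0.19, edgeR adjusted p = 0.952). Epithelial markers (5 genes) summed to 10.3 to 18.8 CPM in Fpr2KO and 12.98 to 18.4 CPM in WT. Eosinophil markers (4 genes) summed to 211 to 263 CPM in Fpr2KO and 169 to 445 CPM in WT, and 3 of the 4 had a lower fitted level (median log2 fold change -0.94). Among them, the chemokine receptor gene Ccr3 had 169, 148, 189 and 144 CPM in Fpr2KO, against 105, 140 and 119 CPM in WT, higher in Fpr2KO with no overlap (log2 0.42 ± 0.13, edgeR adjusted p = 0.751), and the lectin gene Siglecf stood at -0.56 ± 0.23. Of all 16089 tested genes, 439 were higher in Fpr2KO with no overlap. The eosinophil granule protein genes Epx and Prg2 were low in WT replicate 1, where the mean of the other WT libraries was 5.43 and 4.18 times as high. With all libraries they stood at -1.32 and -1.35 on the log2 scale and did not pass in edgeR (adjusted p = 0.9996 for Epx and 0.988 for Prg2). In edgeR without WT replicate 1 they passed (adjusted p = 0.0345 for Epx and 0.018 for Prg2), among 10 called of 16483 tested genes. Leaving out the library in which they were low widens the difference, so this fit is no separate support. Erythroid markers (6 genes) summed to 9937 to 49415 CPM in Fpr2KO and 14748 to 90098 CPM in WT, highest in Fpr2KO replicate 1 and WT replicate 2 within each genotype, as the specific granule genes were. The part of these markers in the differences above was not tested.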

How the data were processed

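The authors deposited 1 table of raw read counts per Ensembl gene for the 7 libraries. Per the submitters' processing notes, FastQC 0.10.1, HTSeq 0.10.0 and the build mm10 (GRCm38) were used. The aligner, the annotation release and the strand setting are not given in the sources used here. Per the labels' protocols, the kit was NEBNext Ultra II. Symbols, positions and lengths came from GENCODE M21 (GRCm38): 52133 IDs were found there, with 99.8% of the counts, and 3281 were not.

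Fpr2KO was set against WT in edgeR 4.0.16 (R 4.3.3) with TMM scaling, filterByExpr at its defaults (16089 genes kept), and the quasi-likelihood F test with robust estimation and no covariate, with Benjamini-Hochberg adjustment over all tested genes. A log2 fold change is Fpr2KO minus WT, and an SE is its size over the root of F. Log2 CPM used a prior count of 2. Alternatives included DESeq2 1.42.0 and limma-voom (limma 3.58.1). Simulated counts with known changes were used to test the edgeR script. The members and 15 further gene lists were chosen with earlier results of these data known. Named genes are the members, Fpr2, the 3 genes of a list with the smallest p (a further one in lists discussed with the members) and the 8 genes most like the members in level. Epithelial, acinar, fat cell and erythroid lists are given by their sums, and the erythroid list also by its median. Ctsg, Prss57, Csf3r, Cxcr2, Retnlg, Spi1, Slc22a17, Epx, Arg1, Cd3e and Spic are named beyond this rule, picked with their values known. A further marker gene, and the sum that includes it, are left out.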

Additional observations from a re-analysis of the deposited data

Results flagged for a closer look

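Within the 4 Fpr2KO libraries, 55 named genes and the 7 levels relative to mature neutrophil genes were searched for a library far from the other 3, and 4 values stood out, where chance flags about 1 in 20. Ltb4r2 relative to mature neutrophil genes was -5.86 (log2) in Fpr2KO replicate 2, against -6.70 to -6.64 in the other Fpr2KO libraries. Cebpd had 35.02 CPM in Fpr2KO replicate 3, against 21.2 to 23.3 CPM in the others. Adgrg1 had 31.9 CPM in Fpr2KO replicate 1, against 24.4 to 25.3 CPM. The epithelial marker Krt19 had 4.11 CPM in Fpr2KO replicate 4, against 0.647 to 1.18 CPM.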

How the results depend on the processing

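In 17 alternative fits the log2 fold changes of the 7 genes stayed below 0, in all 119 values. These values are not independent, because the fits used the same libraries and most of the genes moved together. No member was called in any fit, with adjusted p from 0.5612 (Lcn2, DESeq2) to 0.9999. Over all genes, 6 were called, against 60 with DESeq2, 21 without a low count filter, and from 5 to 15 with 1 library left out (10 without WT replicate 1, 15 without WT replicate 3). The labels number the replicates in both genotypes and do not say what the number means. Same-numbered libraries did not deviate together over all tested genes (correlations of 0.08, -0.43 and -0.07). These correlations cannot exclude a shared batch, because other differences between libraries could mask it. With the replicate block 2 genes and 0 members were called and the median of the members was -0.82. The levels relative to mature neutrophil genes changed sign with the library left out in 6 of the 7 genes, as their ranges over these fits (for example -0.75 to 0.41 for Ltf) include 0. With 3 and 4 libraries and a WT spread near 1 on the log2 scale, differences of the size seen in Camp and Ngp could not be told from the spread. Outside the members, calls of related genes such as Slpi and S100a9 were made by DESeq2 and not by edgeR with all libraries and the filter; the cause was not tested.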
